A study of Homo sapiens with 4 samples.

Results

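The proximal miRNA group of the imprinted 14q32 region comprises the hairpins of miR-493, miR-337, miR-665, miR-431, miR-433, miR-127, miR-432, miR-136 and miR-370. Its members were taken by name, as every listed row of these 9 hairpins with either arm, which gave 16 of the 826 mature miRNAs in the count table. Small RNA was sequenced from H661 cells, an established line derived from a human large cell carcinoma of the lung. One pair of libraries came from cells exposed for 8 h to 2.5 µM entinostat, which blocks the class I histone deacetylases, and the other pair from cells exposed to the solvent dimethyl sulfoxide (DMSO). All cells were grown in the same serum-containing medium, so the drug is the only labelled difference. The libraries held 547875 and 753104 counts with entinostat, and 938559 and 561485 counts with DMSO. Whether the 2 libraries of a treatment are separate cultures is not labelled, and the p-values reflect only how far these libraries vary, which could be technical variation.

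At 14q32 the DLK1-DIO3 domain is read according to parental origin. The protein-coding genes DLK1, RTL1 and DIO3 are expressed from the paternal chromosome, and the long non-coding RNAs MEG3 and MEG8 with the miRNAs from the maternal one. Several of the proximal miRNAs lie antisense to RTL1, a retrotransposon-derived gene, and in the mouse they cleave its transcript. miR-127 is known as a miRNA silenced in bladder cancer cells and induced there by combined inhibition of DNA methylation and histone deacetylation, with BCL6 as a target. How the members' abundance differed between entinostat and DMSO was therefore followed arm by arm.

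All 16 members had a mature sequence in RefSeq (GRCh38.p14). The following 9 arms carried nearly all of the group's counts, and the capitals mark the seed, bases 2 to 8, with which a miRNA recognises its targets. They run along the plus strand of chromosome 14.
miR-493-5p: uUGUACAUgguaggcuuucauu
miR-493-3p: uGAAGGUCuacugugugccagg
miR-337-3p: cUCCUAUAugaugccuuucuuc
miR-431-5p: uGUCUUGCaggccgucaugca
miR-431-3p: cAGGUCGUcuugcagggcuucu
miR-433-3p: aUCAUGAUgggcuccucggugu
miR-127-3p: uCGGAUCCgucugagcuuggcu
miR-432-5p: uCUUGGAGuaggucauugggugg
miR-370-3p: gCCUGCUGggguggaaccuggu

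No 2 of the 16 members shared a seed, and 0 of the other human mature sequences among the 2370 names in the RefSeq table had the seed of any member. Members therefore stand in the genome as neighbours rather than as a sequence family. Their mature sequences were 20 to 23 bases long. Each differed from its closest other human mature sequence by at least 7 single-base changes, insertions or deletions. The longest run shared by members was the 10 bases GUCUUGCAGG, which start at base 2 of miR-431-5p and at base 7 of miR-431-3p. miR-431-3p and the minor arm miR-370-5p begin with the same 6 bases.

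In GENCODE release 29 (GRCh38) the first 8 hairpins, from MIR493 to MIR136, began within 15.6 kb of each other, and MIR370 began 42.1 kb from the start of MIR493. All 9 overlap the annotated gene AL117190.1 on the same strand and lie outside its exons, and MIR370 also lies in an intron of MEG8. MIR431, MIR433, MIR127, MIR432 and MIR136 overlap a coding exon of RTL1 on the opposite strand. The listed mature sequences of these 5 hairpins, 9 in all, had an exact reverse complement in an RTL1 transcript. MIR493, MIR337, MIR665 and MIR370 lie outside RTL1. The downstream imprinted cluster of miR-379 to miR-656 begins 153.0 kb from MIR493.

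Levels are given as counts per 1e+06 counts (CPM) after scaling with the trimmed mean of M-values (TMM). Recovery in small RNA libraries differs between sequences, so an order of levels need not be the order in the cells. The group held 0.989% (exact 95% interval 0.963 to 1.02%) and 1.13% (1.11 to 1.16%) of all counts in the entinostat libraries, and 1.13% (1.10 to 1.15%) and 1.13% (1.10 to 1.16%) in the DMSO libraries. Of the 4 libraries, entinostat replicate 1 was lowest and the other 3 had overlapping intervals, which cover counting error only. The mean share was 1.06 ± 0.102% with entinostat and 1.13 ± 0.00113% with DMSO (SD, n = 2 each). Their difference of -0.0653 percentage points was 0.00648 without entinostat replicate 1. In bulk libraries a lower level cannot be told apart from fewer cells expressing the miRNA. For comparison, the 58 listed rows of the downstream cluster held 2.36% and 2.33% with entinostat and 2.35% and 2.35% with DMSO. The group's counts were 0.420 and 0.487 times those of the downstream cluster with entinostat, and 0.479 and 0.480 times with DMSO.

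miR-127 alone supplied more than all the other proximal hairpins combined. It made up 53.1% and 60.1% of the group's counts in the entinostat libraries, and 55.7% and 56.3% in the DMSO libraries. miR-370 gave 15.5 to 18.1% over the 4 libraries, miR-493 gave 9.94 to 12.9% and miR-433 gave 6.94 to 8.96%. miR-432 and miR-431 each reached at most 4.32%, and miR-337, miR-136 and miR-665 each at most 0.521%. By mean over the 4 libraries no downstream hairpin had a summed level above that of miR-127, and 5 of the 37 listed there lay above miR-370. Single libraries departed from this. In entinostat replicate 1 the arms of miR-409, at 4990 and 581.6 CPM, together exceeded miR-127 at 5294 CPM. In entinostat replicate 2 miR-543 was at 1716 CPM, below miR-370 at 1745 CPM.

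**Figure D1:**
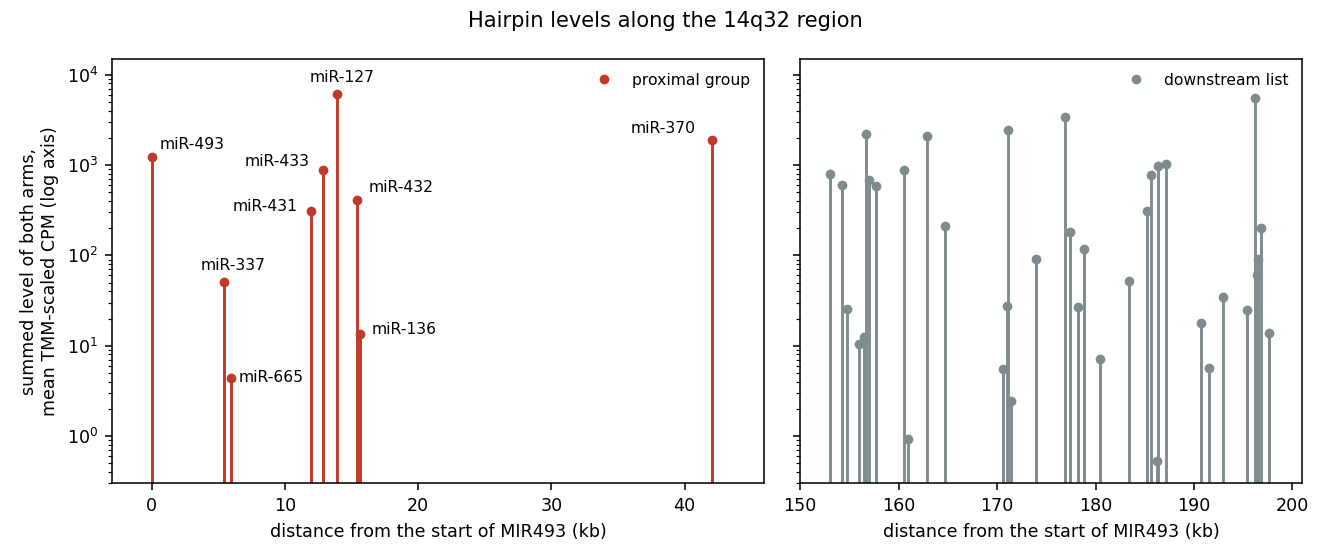
Summed level of both arms of each listed hairpin (mean TMM-scaled CPM over the 4 libraries, log axis) against the distance of the hairpin from the start of MIR493 in kb, with the proximal group on the left and the downstream miR-379 to miR-656 cluster on the right; a hairpin with several genomic copies stands at its first copy. In the proximal group miR-127 is highest, at 6176 CPM, and miR-665 lowest, at 4.38 CPM.

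Closely spaced hairpins differed widely in level. The hairpins of miR-432 and miR-136 are 125 bases apart, and their summed mean levels were 413.9 and 13.4 CPM, a ratio of 30.9. miR-433 and miR-127 are 1000 bases apart, at 873.5 and 6176 CPM, a ratio of 7.07. miR-337 and miR-665 are 447 bases apart, at 51.2 and 4.38 CPM. For the first of these pairs the lowest library of miR-432 was at 374.6 CPM and the highest of miR-136 at 17.1 CPM.

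Of the 16 members, 11 had enough counts to be tested (filterByExpr of edgeR) and 5 did not. In order of mean level the 11 were miR-127-3p, miR-370-3p, miR-433-3p, miR-493-5p, miR-493-3p, miR-432-5p, miR-431-5p, miR-431-3p, miR-337-3p, miR-370-5p and miR-127-5p. Of the 10 neighbours in that order, 8 had ranges over the 4 libraries that did not overlap. The ranges overlapped between miR-431-3p and miR-337-3p, and between miR-370-5p and miR-127-5p. miR-127-3p was the 33rd and miR-370-3p the 69th most abundant of the 826 miRNAs, and 7 members were among the first 200.

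**Figure D2:**
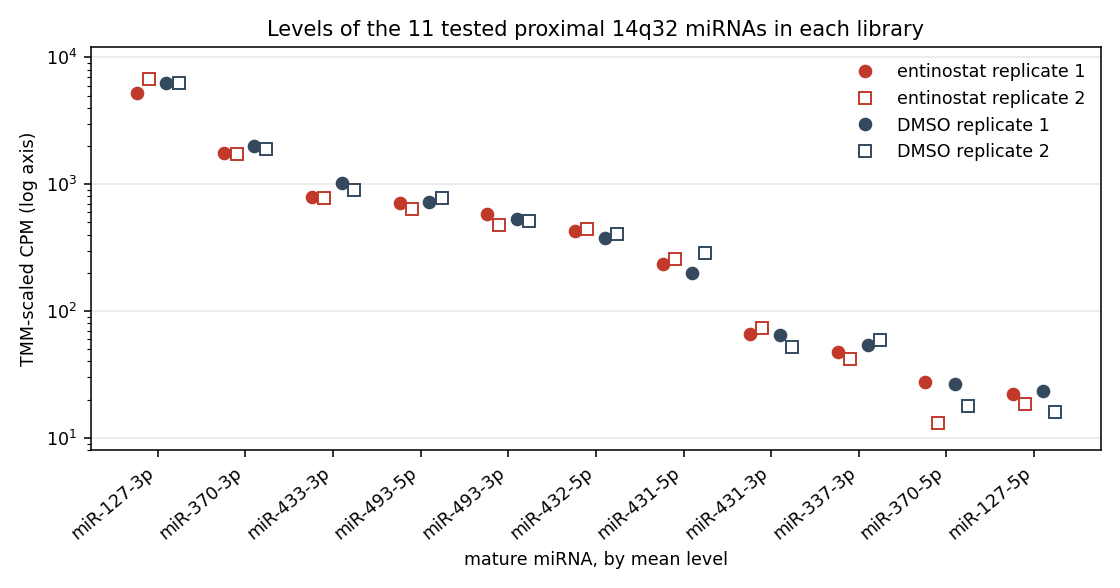
TMM-scaled CPM (log axis) of the 11 tested proximal miRNAs in the entinostat libraries (red) and the DMSO libraries (dark blue), with replicate 1 filled and replicate 2 open. Levels run from 6745 CPM for miR-127-3p to 13.2 CPM for miR-370-5p, and the treatments lie close together for each miRNA.

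None of the 11 tested members was called higher or lower with entinostat at a Benjamini-Hochberg adjusted p under 0.05 (edgeR quasi-likelihood test over all 401 tested miRNAs). Over all tested miRNAs 0% were called, and 6.73% had an unadjusted p under 0.05. By that unadjusted measure 1 of the 11 members passed, miR-433-3p. DESeq2 and limma-voom also called 0 members, and the edgeR likelihood ratio test called 4 miRNAs of which none was a member. The members' log2 fold changes (entinostat over DMSO) ran from -0.32 to 0.26 with a median of -0.07, and 7 lay below 0 and 4 above. Over all 401 tested miRNAs the median was 0.00466. Upper quartile scaling moved that median to 0.12 and the members' median to 0.05, so the members' balance of signs depended on the scaling.

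In 4 of the 11 members both entinostat libraries lay below both DMSO libraries, where 20.0% of all tested miRNAs did so. In 2 of the 11 both lay above, where 20.7% of all tested miRNAs did so. The 4 were miR-433-3p, miR-370-3p, miR-493-5p and miR-337-3p, and the 2 were miR-432-5p and miR-431-3p.

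hsa-miR-433-3p, which has been linked to repression of the deacetylase HDAC6, was at 797.0 and 780.4 CPM in the entinostat libraries, against 1014 and 903.1 CPM in the DMSO libraries. Both entinostat libraries were lower than both DMSO libraries, and the DMSO libraries differed from each other by more than the entinostat libraries did. The log2 fold change was -0.29 (SE 0.11, 95% interval -0.53 to -0.04, edgeR adjusted p = 0.595), which is a fold of 0.820. Leaving out 1 library gave -0.39 to -0.21, the smallest change being without DMSO replicate 1. Under upper quartile scaling the log2 fold change was -0.17 (SE 0.14), and over 15 alternatives the adjusted p ran from 0.299 to 0.999. The 5p arm of miR-433 was not listed among the counted miRNAs.

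hsa-miR-127-3p, the most abundant member, had 2864 and 5117 counts with entinostat, and 5860 and 3556 counts with DMSO. Its levels were 5272 and 6745 CPM in the entinostat libraries, against 6272 and 6334 CPM in the DMSO libraries. The entinostat libraries lay on either side of the DMSO pair, which was much tighter. The mean was 6009 ± 1042 CPM with entinostat and 6303 ± 44.1 CPM with DMSO (SD, n = 2 each), a log2 fold change of -0.07 (95% interval -0.33 to 0.20; edgeR adjusted p = 0.892). The sign depended on entinostat replicate 1, since the log2 fold change was 0.09 without it and -0.26 without entinostat replicate 2, and on the scaling, at 0.05 with upper quartile factors. In fold terms the interval was 0.795 to 1.15.

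hsa-miR-370-3p, reported to be silenced by methylation in cholangiocarcinoma cells and to target the kinase gene MAP3K8, had 962 and 1314 counts with entinostat, and 1884 and 1068 counts with DMSO. It was at 1771 and 1732 CPM in the entinostat libraries, against 2016 and 1902 CPM in the DMSO libraries. Both entinostat libraries were lower, by a margin comparable to the gap between the DMSO libraries. The log2 fold change was -0.16 (95% interval -0.37 to 0.04; edgeR adjusted p = 0.595). It was -0.05 under upper quartile scaling.

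Both arms of miR-493 were abundant. miR-493-5p was at 712.3 and 643.3 CPM with entinostat, against 718.2 and 773.1 CPM with DMSO, and miR-493-3p was at 578.0 and 474.6 CPM with entinostat, against 530.9 and 511.2 CPM with DMSO. The entinostat libraries lay below the DMSO libraries for the 5p arm, and on either side of them for the 3p arm. The log2 fold changes were -0.14 (95% interval -0.39 to 0.12) and 0.01 (-0.29 to 0.30), with edgeR adjusted p = 0.693 and 0.990. For the 5p arm the log2 fold change was -0.22 without entinostat replicate 1, -0.20 without DMSO replicate 1, -0.07 without entinostat replicate 2 and -0.03 under upper quartile scaling.

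miR-432-5p was at 427.0 and 440.3 CPM with entinostat, against 374.6 and 406.1 CPM with DMSO, so both entinostat libraries were higher. Its log2 fold change was 0.16 (95% interval -0.11 to 0.43, edgeR adjusted p = 0.678), or 0.08 without DMSO replicate 1 and 0.27 under upper quartile scaling. miR-431-5p, which in the mouse represses Pax7 in muscle precursors, was at 233.8 and 255.7 CPM with entinostat, against 199.1 and 288.6 CPM with DMSO. The DMSO libraries enclosed the entinostat libraries, and the log2 fold change of 0.04 (-0.39 to 0.47) changed to -0.25 when DMSO replicate 1 was left out and to 0.27 when DMSO replicate 2 was. Its partner miR-431-3p was at 66.3 and 73.8 CPM with entinostat, against 64.2 and 51.7 CPM with DMSO, a log2 fold change of 0.26 (-0.27 to 0.79). That value was 0.43 without DMSO replicate 1, 0.10 without DMSO replicate 2 and 0.16 without entinostat replicate 2.

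The remaining tested members rested on few counts. miR-337-3p had 26 and 32 counts with entinostat, against 50 and 33 with DMSO, and at 47.9 and 42.2 CPM with entinostat, against 53.5 and 58.8 CPM with DMSO, both entinostat libraries were lower (log2 fold change -0.32, 95% interval -0.90 to 0.26, or -0.20 under upper quartile scaling). miR-370-5p had 15 and 10 counts with entinostat, against 25 and 10 with DMSO (-0.24, -1.35 to 0.86). hsa-miR-127-5p had 12 and 14 counts with entinostat, against 22 and 9 with DMSO (-0.03, -1.0 to 0.94). For miR-370-5p and miR-127-5p a change of 2-fold was within the interval.

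Of the 11 tested members, the 95% interval stayed within 1.5-fold up or down for 7 and within 2-fold for 9. Over all 401 tested miRNAs 207 and 295 did. These intervals hold for each miRNA singly.

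**Figure D3:**
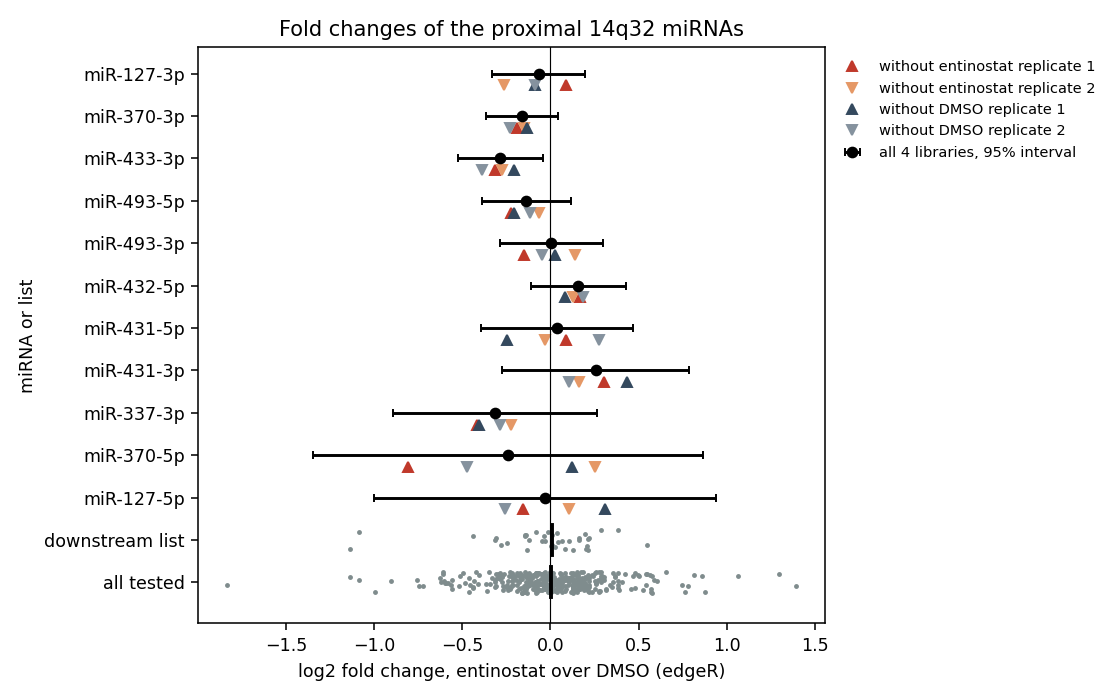
Log2 fold change (entinostat over DMSO, edgeR) of each tested proximal miRNA with its 95% interval (black), the value with each library left out (coloured triangles), and below them the values of the 38 tested downstream miRNAs and of all 401 tested miRNAs (grey points, black bar at the median). The interval of miR-433-3p, -0.53 to -0.04, is the only one of the 11 that leaves out 0.

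The 5 untested members had few counts. A count of 0 is compatible with 5.48 and 3.98 CPM for entinostat replicates 1 and 2. For DMSO replicates 1 and 2 it is compatible with 3.20 and 5.34 CPM (3 counts over the unscaled total). miR-136-3p had 7 and 13 counts with entinostat, against 4 and 5 with DMSO. Its levels were 12.9 and 17.1 CPM with entinostat, against 4.28 and 8.91 CPM with DMSO. Both entinostat libraries were higher, on few counts, and this difference was not tested. miR-136-5p had 2 and 0 counts with entinostat, against 3 and 2 with DMSO. miR-665 had 2 and 4 counts with entinostat, against 8 and 0 with DMSO. miR-432-3p had 2 and 3 counts with entinostat and 0 in both DMSO libraries, and miR-337-5p had 0 and 2 with entinostat and 0 in both DMSO libraries. For miR-432-3p and miR-337-5p no difference was detectable at this depth.

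The hairpins differed in which arm was recovered. They are shown for a hairpin with both arms abundant, MIR493, and one with nearly all counts on the 3p arm, MIR127 (GRCh38.p14, plus strand, chr14:100869060-100869148 and chr14:100882979-100883075); capitals mark the 5p and then the 3p mature sequence.
MIR493: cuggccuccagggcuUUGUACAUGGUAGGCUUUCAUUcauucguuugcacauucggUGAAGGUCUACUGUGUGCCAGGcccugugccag
MIR127: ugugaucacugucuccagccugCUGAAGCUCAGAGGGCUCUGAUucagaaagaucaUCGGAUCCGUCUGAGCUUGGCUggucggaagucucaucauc

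For miR-127 the 5p arm held 0.417% and 0.273% of the counts of both arms with entinostat, and 0.374% and 0.252% with DMSO. miR-370 was also a 3p hairpin, with 1.54% and 0.755% of counts on the 5p arm with entinostat, and 1.31% and 0.928% with DMSO. miR-432 was the opposite, with 99.1% and 99.1% of counts on the 5p arm with entinostat, and 100% in both DMSO libraries. In miR-431 the 5p arm held 77.9% and 77.6% with entinostat, and 75.6% and 84.8% with DMSO. In miR-493 it held 55.2% (exact 95% interval 51.4 to 58.9%) and 57.5% (54.1 to 60.9%) with entinostat, and 57.5% (54.6 to 60.4%) and 60.2% (56.5 to 63.8%) with DMSO. Neighbouring hairpins thus kept opposite arms, as miR-127 and miR-432, 1407 bases apart, show.

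Arm ratios of the treatments were compared by exact permutation in the 3 hairpins with 10 or more counts of each arm in every library, and no difference passed. The log2 ratio of 5p over 3p counts in miR-493 was 0.37 ± 0.097 with entinostat and 0.52 ± 0.11 with DMSO (SD, n = 2 each; two-sided exact permutation p = 0.667, adjusted p = 1). In miR-431 it was 1.81 ± 0.019 with entinostat and 2.06 ± 0.60 with DMSO, and in miR-370 it was -6.52 ± 0.73 with entinostat and -6.49 ± 0.36 with DMSO (exact permutation p = 1 for both). The difference in miR-431 ranged from -0.68 to 0.17 according to which DMSO library was left out. With 2 libraries against 2 this test cannot go below 0.33.

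**Figure D4:**
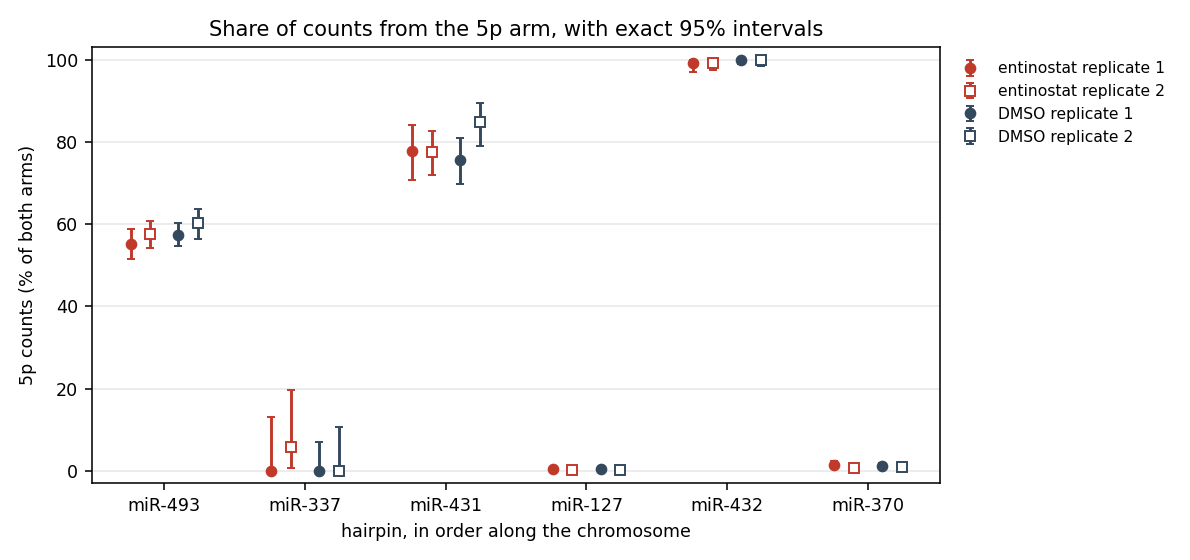
Share of a hairpin's counts that came from the 5p arm, in percent, for 6 proximal hairpins in the entinostat libraries (red) and the DMSO libraries (dark blue), with exact 95% intervals of counting error. miR-127 and miR-370 lie near 0%, miR-337 at 0 to 5.88%, miR-432 near 100%, and miR-493 between 55.2% and 60.2%.

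The downstream imprinted cluster, expressed from the same chromosome, was followed for comparison. Of its 58 listed rows 38 were tested and 0 were called in either direction, with 21 above 0, 17 below and a median log2 fold change of 0.00843 (0.13 with upper quartile factors). Its most abundant miRNAs were miR-409-3p (log2 fold change -0.08), miR-381-3p (0.21), miR-323a-3p (-0.04) and miR-543 (-0.25). miR-543 was called lower without entinostat replicate 1 (-0.42, edgeR adjusted p = 0.0450). Whether the proximal and downstream groups differed was not tested.

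Among miRNAs outside the proximal group, those whose pattern over the 4 libraries was most like that of miR-127-3p also lay outside the downstream cluster. The members were left out of this ranking, so their own likeness to miR-127-3p was not compared. Likeness was the root mean square difference of log2 CPM, each miRNA centred on its own mean, among 230 non-member miRNAs of 100 CPM or more. The closest were miR-324-3p (0.0223), miR-1296-5p (0.0367) and miR-486-5p (0.0367), against a median of 0.164. Like miR-127-3p, each was lowest in entinostat replicate 1 and highest in entinostat replicate 2, so the likeness turns on those 2 libraries. miR-324-3p was at 108.6 and 137.1 CPM with entinostat, against 124.2 and 126.5 CPM with DMSO.

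The miRNAs taken as markers of blood, muscle and liver were scarce in these libraries. All marker sums are given in CPM of the unscaled library totals. Those of blood summed to 0 to 5.48 CPM, of muscle to 5.34 to 12.8 CPM and of liver to 0 to 5.33 CPM. Of 5 blood hairpins only 1 was listed, and of 4 muscle hairpins 2 were. Other miRNAs were not weighed as markers of these cell types. Epithelial hairpins were taken as markers of the lung line itself. Of these 6 hairpins 3 were listed, mostly as miR-200c-3p. They summed to 58.4 and 51.8 CPM with entinostat, and 36.2 and 28.5 CPM with DMSO. Of 5 mesenchymal hairpins 4 were listed, mostly as miR-143-3p. They summed to 115.0 and 119.5 CPM with entinostat, and 72.5 and 94.4 CPM with DMSO. In every library this was above the epithelial sum. Both the epithelial and the mesenchymal sums were higher with entinostat, and their part in the members' values was not tested. miR-143-3p by itself overlapped between treatments, at 92.0 and 71.2 TMM-scaled CPM with entinostat, against 58.9 and 83.7 with DMSO. miR-145-5p had 9 and 26 counts with entinostat, against 11 and 4 with DMSO.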

How the data were processed

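Counts per mature miRNA name, whole numbers, and CPM values were deposited by the authors. The deposited CPM equal count over column total times 1e+06, within 0.0001 CPM in 100% of rows. Per the labels' protocols, total RNA from TRIzol extraction entered New England Biolabs small RNA reagents. The submitters' processing notes name bcl2fastq 2.18. The aligner and counter, the annotation and the build were not given in the sources used here. No molecular identifier is named, so the exact intervals of shares and arms take every count as a separate molecule. Those intervals cover counting error only, whereas the edgeR intervals of fold changes also draw on the scatter between libraries.

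The test on counts was edgeR's quasi-likelihood test (edgeR 4.0.16, R 4.3.3, TMM, treatment as the only term, filterByExpr minimum count 10 and total 15), adjusted over 401 rows. It was also run on simulated counts with a common dispersion for all miRNAs. That run does not show how the test performs on these libraries. Replicate pairs differed beyond sampling noise (chi-square per degree of freedom 9.39 for entinostat and 7.21 for DMSO). Alternatives covered scaling, filter, tool (DESeq2 1.42.0, limma 3.58.1), limma-trend on log2(deposited CPM + 1) or + 0.5, a replicate block and leaving out each library. Named were all members, the 4 most abundant downstream miRNAs, any downstream miRNA called, and the 3 non-members most like the most abundant member. Members and lists were chosen with earlier results of these data known. Shares and arms were computed in Python 3.11.15 (SciPy 1.17.1).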

Additional observations from a re-analysis of the deposited data

How the results depend on the processing

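None of the 11 tested proximal members was called under any of the 15 alternatives, and 148 of 165 recomputed fold changes kept their sign. Signs did not turn for miR-433-3p, miR-370-3p, miR-493-5p, miR-337-3p, miR-432-5p and miR-431-3p. With upper quartile factors the log2 fold change was 0.048 for miR-127-3p and 0.095 for miR-127-5p. For miR-127-5p it was 0.011 with DESeq2, 0.054 and 0.056 on deposited CPM plus 1 or plus 0.5, and 0.037 with the replicate block. For miR-493-3p it was -0.0090 with a mean CPM of 10 or more and -0.0084 with limma-voom. Leaving out 1 library gave -0.26 to 0.086 for miR-127-3p, -0.26 to 0.31 for miR-127-5p, -0.81 to 0.25 for miR-370-5p, -0.25 to 0.27 for miR-431-5p and -0.15 to 0.14 for miR-493-3p. miR-127-3p was above 0 only without entinostat replicate 1 among these. Over all tested miRNAs the likelihood ratio test called 4, and leaving out 1 library gave 0 to 5 calls, with 0 to 1 in the downstream cluster, whose median ran from -0.054 to 0.0095 and was 0.13 with upper quartile factors. Differences in arm log2 ratio then ran from -0.23 to -0.066 for miR-493, -0.68 to 0.17 for miR-431 and -0.55 to 0.48 for miR-370, and that of the group's share from -0.137 to 0.00648 percentage points. The cause of these shifts was not tested. The replicate block called 0 members and 0 miRNAs in all. Same-numbered libraries are not said to be paired, and their deviations had a correlation of -0.134 over 237 miRNAs. Low counts limit miR-370-5p and miR-127-5p, whose intervals reached past 2-fold, and left 5 members untested.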
